A study of Mus musculus with 4 samples.

Results

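Arterial endothelial cells of the mouse long bone were taken from 4 single-cell libraries as barcodes selected by their own transcripts. Barcodes were kept with at least 1000 unique molecular identifiers (UMIs, each one captured RNA molecule), at least 800 detected features, under 15% mitochondrial UMIs and under 5% hemoglobin UMIs. A barcode counted as endothelial with at least 1 UMI of *Cdh5*, at least 3 UMIs of *Cdh5*, *Pecam1* and *Egfl7* together, and none of the leukocyte gene *Ptprc*. It counted as arterial with at least 2 UMIs of *Sema3g*, *Stmn2* and *Gja5* together and none of the sinusoidal gene *Stab2*. This left 892 arterial barcodes among 2904 endothelial barcodes and 24739 barcodes in all. The remaining 2012 endothelial barcodes are called other endothelial below. By library there were 185 and 223 arterial barcodes in the mutants and 259 and 225 in the controls.

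Both mutant libraries (genotype label *Lats2*iECKO, here mutant 1 and mutant 2) came from mice with *Lats2* lox/lox alleles and Cdh5(PAC)-CreERT2, a tamoxifen-dependent Cre recombinase driven by the endothelial *Cdh5* promoter. Control 1 and control 2 came from littermates that lacked Cre. The labels name the controls untreated, whereas the methods of the study state that controls received tamoxifen as well. All libraries were of bone from mice at postnatal week 12 on a C57BL/6 background, made from the metaphysis of femur and tibia after collagenase digestion and removal of lineage-positive, CD45+ and CD117+ cells. Cre acts in the endothelium of every organ in this model, so direct and systemic effects of the deletion cannot be told apart. The study states 2 biological replicates for each genotype, and the labels do not say how many mice stood behind each library. *Xist* was at 0 in the arterial barcodes of all 4 libraries while the Y-linked *Ddx3y* stood between 64.9 and 90.8 CPM (UMIs of the gene per 1000000 UMIs summed over these barcodes).

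Arteries carry blood under high pressure into the marrow. Their endothelium is known for Notch signaling through *Dll4* and *Jag1*, for SOX17 and HEY transcription factors, for ephrin-B2 on the cell surface, and for a wall rich in elastic fibers. In long bone, arteries feed metaphyseal capillaries, which drain into sinusoids. LATS2 is a kinase of the Hippo pathway that phosphorylates the coactivators YAP1 and TAZ (encoded by *Wwtr1*) and so keeps them from driving TEAD-dependent transcription.

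Arterial genes that the gate did not use were then described. They are no independent check of the label, since they were chosen with earlier results of these data known. *Sox17*, a transcription factor of arterial specification, was detected in 81.1% and 71.7% of the arterial barcodes of mutant 1 and 2 and in 74.5% and 74.2% of those of control 1 and 2. The corresponding shares of other endothelial barcodes were 44.4%, 43.3%, 33.8% and 33.9%. *Fbln2*, an elastic-fiber glycoprotein, was found in 92.7% to 94.6% of arterial barcodes by library against 33.8% to 43.5% of the others. *Gja4*, the gap-junction protein connexin 37, was found in 57.8% to 66.4% against 7.16% to 11.8%. In each library the arterial share was above that of the other endothelial barcodes for all 3 genes. Median depth in arterial barcodes was 6901 and 6281 UMIs in mutants and 6418 and 5370 UMIs in controls, which overlap. In other endothelial barcodes it was higher in mutants, at 7397 and 7209 UMIs against 6150 and 6086 UMIs in controls. The gate rests on UMI counts, and the detection shares were not adjusted for depth. These shares cover counting error only, and the comparison of classes is a description because the same cells were used to form them.

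**Figure D1:**
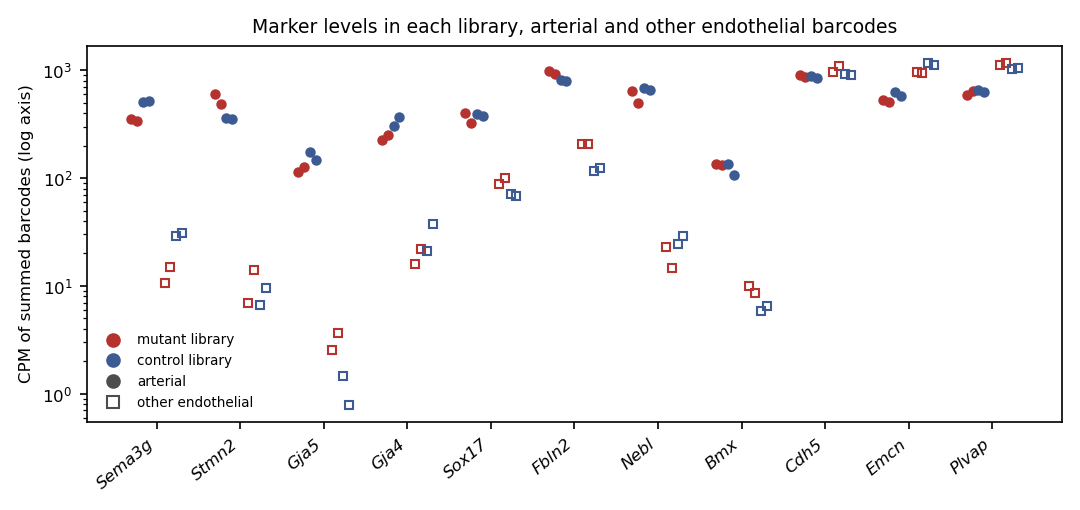
Level of 11 genes in CPM of summed UMIs (log axis), with 1 point per library, for arterial barcodes (filled circles) and other endothelial barcodes (open squares). The gate genes *Sema3g*, *Stmn2* and *Gja5*, and also *Gja4*, *Nebl* and *Bmx*, sit far apart between the classes, while *Cdh5* lies close together and *Emcn* and *Plvap* are higher in the other endothelial barcodes.

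*Sema3g* (ENSMUSG00000021904, chr14:30939808-30952309, GRCm39) encodes a secreted semaphorin, *Stmn2* (ENSMUSG00000027500, chr3:8574151-8626667) a microtubule-binding stathmin and *Gja5* (ENSMUSG00000057123, chr3:96812009-96984732) connexin 40. As gate genes they are described without a test. In arterial barcodes *Sema3g* stood at 350.1 and 341 CPM in the mutants and 506 and 522 CPM in the controls. *Stmn2* was at 602 and 491 CPM in the mutants against 357 and 356 CPM, and *Gja5* at 113 and 126 CPM against 174 and 147 CPM. The mutant libraries were therefore below both controls for *Sema3g* and *Gja5* and above both for *Stmn2*. Just inside the gate, with exactly 2 UMIs of these genes, lay 30, 37, 50 and 45 arterial barcodes of mutant 1, mutant 2, control 1 and control 2. Just outside, with 1 UMI, lay 41, 73, 84 and 112 other endothelial barcodes, and another 9, 11, 22 and 17 had 2 or more UMIs but were placed outside by *Stab2*.

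Among genes at 50 CPM or more, the largest ratios of arterial over other endothelial level beyond the gate genes were 139.7 for *Gkn3*, 44.9 for *Gper1*, 27.8 for *Nebl*, 23.6 for *Egfl8*, 18.2 for *Tox2* and 17.8 for *Mannr* (median ratio over the 4 libraries). *Bmx*, a Tec-family kinase known from arterial endothelium, followed at 16, with *Ptprr*, a phosphatase, at 13.4 and *Tmem100*, a membrane protein downstream of ALK1 signaling, at 13.0. *Gkn3* was nevertheless found in few cells, with 18.9% of mutant and 14.0% of control arterial barcodes. At the other end, the scavenger receptor *Mrc1* was at 0.572 and 0.476 CPM in mutant and 10.3 and 13.5 CPM in control arterial barcodes, against 122 and 114 and 462 and 416 CPM in other endothelial barcodes. *Il13ra2*, *Lipg*, *Sema3a*, *Dnase1l3*, *Ubd* and *Ston2* completed the low end, with at most 8.79 CPM in every library.

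The arterial barcodes were not uniform. *Sema3g* was present together with *Stmn2* or *Gja5* in 71.4% and 70.9% of mutant and 67.2% and 71.1% of control arterial barcodes. Barcodes with *Stmn2* or *Gja5* but no *Sema3g* UMI made up 23.2% and 21.5% in the mutants against 15.1% and 10.2% in the controls. Those with *Sema3g* alone made up 5.41% and 7.62% against 17.8% and 18.7%. Both shares separated the genotypes without overlap. The barcodes lacking *Sema3g* held 933, 1037, 692 and 903 CPM of *Vwf*, which encodes von Willebrand factor, and 25.9 to 116 CPM of *Gja4*. *Plvap*, a gene of fenestrated endothelium, was at 1263 to 1918 CPM there against 217 to 431 CPM in barcodes with *Sema3g* and with *Stmn2* or *Gja5*. *Efnb2* was at 34.5 to 94.7 against 216 to 414 CPM. *Sox17* was at 94.8 to 157 against 402 to 502 CPM. On these genes the barcodes lacking *Sema3g* go against the arterial name. *Eln*, the elastin gene, went the other way, at 656 to 1013 against 428 to 523 CPM. *Fbln2* was lower but well detected, at 519 to 760 against 909 to 1087 CPM. *Mgp* overlapped, at 2069 to 8510 against 1804 to 5428 CPM. In barcodes with *Sema3g* alone *Vwf* was at 23.9 to 42.9 CPM and *Gja4* at 191 to 268 CPM, and this group held as few as 10 and 17 barcodes in the mutants. *Plvap* at 691 to 1208 CPM and *Sox17* at 163 to 255 CPM go against the name there too, while *Efnb2* was at 336 to 489 CPM. These groups were defined after the values were seen and by gate genes, so they are descriptions.

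Total depth was 69636600 to 85899079 UMIs per library, and no endothelial barcode was shared between libraries. The mutants had a median mitochondrial share of 5.67% and 5.57% in arterial barcodes, the controls 4.64% and 4.63%. RNA free in the suspension, read from barcodes with under 100 UMIs, was estimated to make up 2.09%, 1.15%, 1.41% and 5.73% of arterial UMIs in mutant 1, mutant 2, control 1 and control 2 by the ratio of hemoglobin genes, the lowest of 3 ratios and taken in barcodes kept for low hemoglobin. The osteoblast ratio gave 3.67%, 2.05%, 2.36% and 16.1% and the chondrocyte ratio 3.26%, 12.7%, 13.2% and 23.0%. Markers of other cell types differed between libraries, some by library and some by genotype. The summed level of 12 osteoblast markers in arterial barcodes was 1739, 485, 1341 and 10535 CPM in the same order, and that of 10 chondrocyte markers was 671, 2754, 2207 and 3886 CPM. Mural markers (11 genes) summed to 829.6, 1057, 737 and 926 CPM, reticular stromal markers (7 genes) to 229, 261, 595 and 586 CPM, fibroblast markers (8 genes) to 192, 510.1, 198 and 553 CPM and erythroid markers (7 genes) to 1128, 622, 208 and 814 CPM. Reticular stromal markers were lower in both mutants than in both controls, with *Limch1* (-0.55) and *Lepr* (-0.54) called lower (log2 fold changes; *Lepr* not without control 1, -0.22, adjusted p = 0.377, nor with free RNA subtracted, -0.48, adjusted p = 0.0912), and erythroid markers were above the controls in mutant 1 only. All 11 leukocyte markers were under 10 CPM in every library, with *Cd3e* and *Elane* at 0, and all 5 lymphatic markers were under 10 CPM too; the 5 megakaryocyte markers summed to 15.4, 20.004, 35.6 and 65.5 CPM, also lower in both mutants. Among 4 erythroid genes tested *Hba-a2* and *Hbb-bs* were called higher in mutants, where 13.7% of all genes were. In free RNA the erythroid markers summed to 53749 and 53635 CPM in the mutants and 14155 and 14279 CPM in the controls. The part of the markers of other cell types in the results below was not tested.

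The share of arterial barcodes among endothelial barcodes was the first comparison of the genotypes. It was 33.8% (95% exact binomial interval 29.8% to 37.9%) in mutant 1 and 32.8% (29.3% to 36.5%) in mutant 2, against 30.8% (27.7% to 34.0%) in control 1 and 26.9% (24.0% to 30.1%) in control 2. The means were 33.3% ± 0.68 and 28.9% ± 2.72 (SD, n = 2 each), 4.41 percentage points apart, with the mutants above both controls. The gap was 2.48 percentage points without control 2 and 6.33 without control 1. An exact two-sided permutation test gave p = 0.33, the smallest value that 2 libraries against 2 allow. With every barcode thinned to 2000 UMIs the shares were 22.1% and 21.1% in mutants and 21.1% and 17.8% in controls, which overlap. A gate on *Sox17*, *Fbln2* and *Gja4* in place of the 3 gate genes gave 59.9% and 58.2% in mutants against 44.1% and 42.5% in controls, 15.7 percentage points apart. Among the other endothelial barcodes the makeup itself differed, with *Stab2* in 31.7% and 31.1% of mutant and 57.6% and 54.6% of control barcodes, so the denominator of this share was not the same kind of population in both genotypes.

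**Figure D2:**
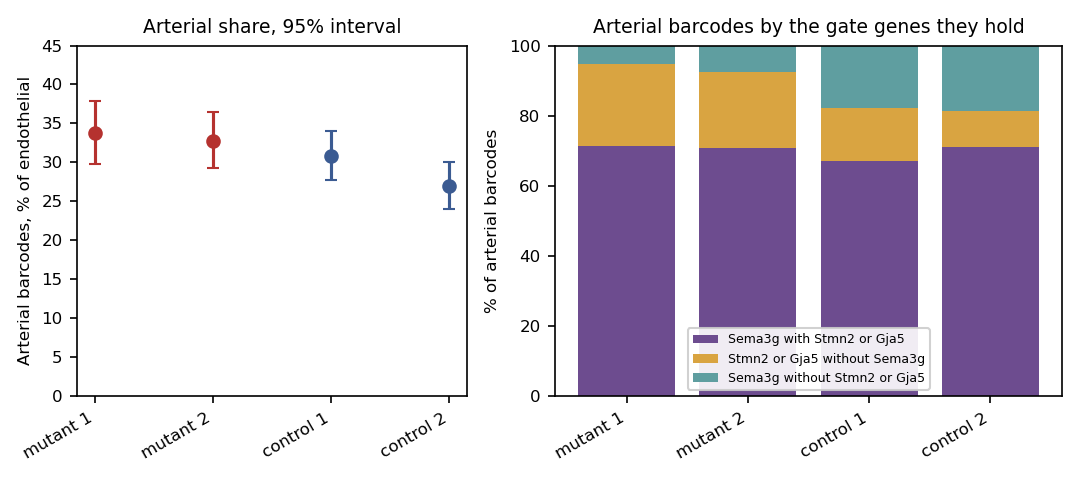
Left, arterial barcodes as a percentage of endothelial barcodes in each library with the 95% exact binomial interval, from 26.9% in control 2 to 33.8% in mutant 1. Right, the arterial barcodes of each library split by which gate genes they hold, in which those without *Sema3g* take 23.2% and 21.5% in mutants and 15.1% and 10.2% in controls.

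The targeted gene came first among the tests. *Lats2* (ENSMUSG00000021959, chr14:57926960-57995845, minus strand) was at 104 and 91.9 CPM in mutant and 143 and 145 CPM in control arterial barcodes. Both mutants lay below both controls (log2 fold change -0.48 ± 0.12, adjusted p = 0.00864, quasi-likelihood test of edgeR, adjusted by Benjamini-Hochberg over all genes tested, as for every adjusted p below). The exons between the lox sites are not given in the sources used here, and 3′ reads from outside them are still counted, so this level does not measure the deletion. The call was lost without mutant 2 (-0.40, adjusted p = 0.0669). Cre-ERT2 transcript was at 44.6 and 38.6 CPM in the mutants and at 0 in both controls. The paralog *Lats1* was at 27.5 and 21.0 CPM against 36.6 and 31.0 CPM and did not pass the test (log2 fold change -0.43 ± 0.21, adjusted p = 0.145). Of the 15 tested members of the Hippo pathway list, 0 rose and 4 fell, the targeted *Lats2* among the 4, where 13.7% of all genes tested were called higher and 12.9% lower. The lower members besides *Lats2* were the kinases *Stk3* (80.7 and 101 against 138 and 125 CPM, log2 fold change -0.45) and *Taok1* (-0.39) and the TEAD cofactor *Vgll4* (-0.35). Each of the 3 lost its call with a library left out, *Stk3* without mutant 1 (-0.29, adjusted p = 0.217) or control 1 (-0.38, adjusted p = 0.0554), *Taok1* without mutant 2 (-0.36, adjusted p = 0.0839) or control 1 (-0.26, adjusted p = 0.155), and *Vgll4* without mutant 1 (-0.37, adjusted p = 0.0512), mutant 2 (-0.33, adjusted p = 0.109) or control 2 (-0.32, adjusted p = 0.0622). Without the minimum share of barcodes 1 of 17 members fell, near the 6.09% of all genes called lower there. By DESeq2, which called 5.65% of all genes lower, 0 of the 15 passed adjustment, and 4 had an unadjusted p under 0.05. In other endothelial barcodes 9 of 16 tested members were lower and 1 higher, where 27.8% and 27.3% of all genes were called.

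Across 5909 genes tested in arterial barcodes, 812 (13.7%) were higher and 765 (12.9%) lower in mutants with 0.05 as the limit of the adjusted p, and the median log2 fold change over all of them was 0.01. Changes of at least 2-fold were called for 122 genes (2.06%) upward and 65 genes (1.1%) downward. In CPM the libraries of the genotypes did not overlap for 1517 genes with mutants above (25.7%) and for 2332 with mutants below (39.5%). CPM lacks the library scaling (TMM) of the tests, whose factors were 0.975 and 0.962 in mutants and 1.038 and 1.027 in controls. Levels in CPM therefore sit lower in mutants, relative to controls, than in the tests. DESeq2 called 459 higher and 334 lower. Genes entered the test when detected in 20% of the barcodes of either genotype, and 185 of the higher and 110 of the lower genes reached that share only in the genotype in which they were higher, so their entry was not independent of the difference. Among genes named below these are *Slc35f1*, *Rnd1*, *Gem*, *Csrnp1*, *Wee1*, *Tmem252*, *Gper1*, *Kcnn4*, *Bmp4*, *Ccn2*, *Fhl1*, *Tagln*, *Snai1*, *Fcer1g*, *Pde1c*, *Btnl9*, *Ramp3*, *Tfpi*, *Itga2*, *Nid2*, *Ltbp1* and the *Snord3b1* copies, which the group counts below include. Without that minimum each was still called except *Ltbp1* (-0.54, adjusted p = 0.104). In other endothelial barcodes of the same libraries 6275 genes were tested, with 1716 (27.3%) higher and 1746 (27.8%) lower, from sums over 2012 barcodes rather than 892.

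With the Cre transgene set aside, the largest increase belonged to *Slc35f1*, a solute carrier family member, at 124 and 131 CPM in the mutants and 13.2 and 16.4 CPM in the controls (log2 fold change 3.2 ± 0.16, adjusted p = 1.35e-07). *Socs3*, the feedback inhibitor of cytokine signaling through JAK and STAT3, was at 421 and 372 CPM against 106 and 87.8 CPM (log2 fold change 2.10 ± 0.12, adjusted p = 2.57e-07). *Icam1*, the leukocyte adhesion receptor, was at 318 and 297 CPM against 109 and 59.7 CPM (log2 fold change 1.93 ± 0.18, adjusted p = 1.38e-05). In each of these the mutant libraries were separate from the controls by more than the distance within either group. *Rnd1*, an atypical small GTPase, rose from 32.2 and 20.5 to 97.3 and 112 CPM and *Gem*, a GTPase of the RGK family, from 18.6 and 17.6 to 62.4 and 56.7 CPM. *Csrnp1*, a nuclear protein induced by AXIN1, had a log2 fold change of 2.04, *Gadd45b*, a stress-response gene, 1.78 and *Wee1*, an inhibitory kinase of the cell cycle, 1.78. *Fabp5*, *Ier3* and *Tmem252* were also among the 12 largest increases, and 2 further genes as large, a predicted gene and a ribosomal copy, were counted but not described.

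The largest decreases were the osteoblast products *Bglap2* and *Bglap*. *Bglap* was at 65.2 and 66.7 CPM in mutants against 297 and 2531 CPM in control 1 and 2, the second being the library whose osteoblast marker sum in arterial barcodes was 10535 CPM. Without control 2 the log2 fold change of *Bglap* was -2.09 (adjusted p = 1.78e-14) and that of *Bglap2* -2.20 (adjusted p = 4.48e-12), against -4.35 and -4.50 with it. In free RNA the 12 osteoblast markers summed to 21436, 18054, 56796 and 59068 CPM in mutant 1, mutant 2, control 1 and control 2, so they were lower in mutants there too. After subtraction of the estimated free RNA *Bglap* (-6.84 ± 1.31, adjusted p = 0.00309) and *Bglap2* (-12.44 ± 2.68, adjusted p = 0.00719) were still called lower, at fitted values far from those before subtraction, so the size of these decreases is not given by the fit. The subtraction used the hemoglobin ratio, which was below the osteoblast ratio in every library, so osteoblast RNA can remain and these calls cannot settle its part. *Bglap* was detected in 48.6% and 43.5% of mutant and 72.2% and 74.7% of control arterial barcodes. In other endothelial barcodes it was detected in 52.6% and 42.7% and in 77.3% and 78.5%. The part of free RNA in these decreases was not tested. The 4 annotated copies of the small nucleolar RNA U3, *Snord3b1* to *Snord3b4*, carried identical values at 1.14 and 1.91 CPM against 13.2 and 12.3 CPM (log2 fold change -2.90 ± 0.37, adjusted p = 1.20e-04) and share reads, so they are 1 measurement. *Btnl9*, a butyrophilin-like surface protein of capillary endothelium, was at 52.6 and 53.3 CPM against 192 and 218 CPM (log2 fold change -1.87 ± 0.12, adjusted p = 1.28e-06). *Fcer1g*, the Fc receptor gamma chain, was at 9.73 and 15.2 CPM against 64.5 and 80.2 CPM (log2 fold change -2.41 ± 0.23, adjusted p = 1.27e-05). *Pde1c*, a cyclic nucleotide phosphodiesterase, fell from 69.3 and 69.6 to 14.9 and 17.6 CPM, having entered the test through the controls alone, *Tspan18*, a tetraspanin, from 159 and 143 to 45.8 and 42.4 CPM, and *Mcf2l*, a guanine nucleotide exchange factor, from 165 and 165 to 49.8 and 46.7 CPM. *D5Ertd615e* was the last of the 12, with a log2 fold change of -1.63, and 2 predicted or unnamed genes with decreases as large were counted only.

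**Figure D3:**
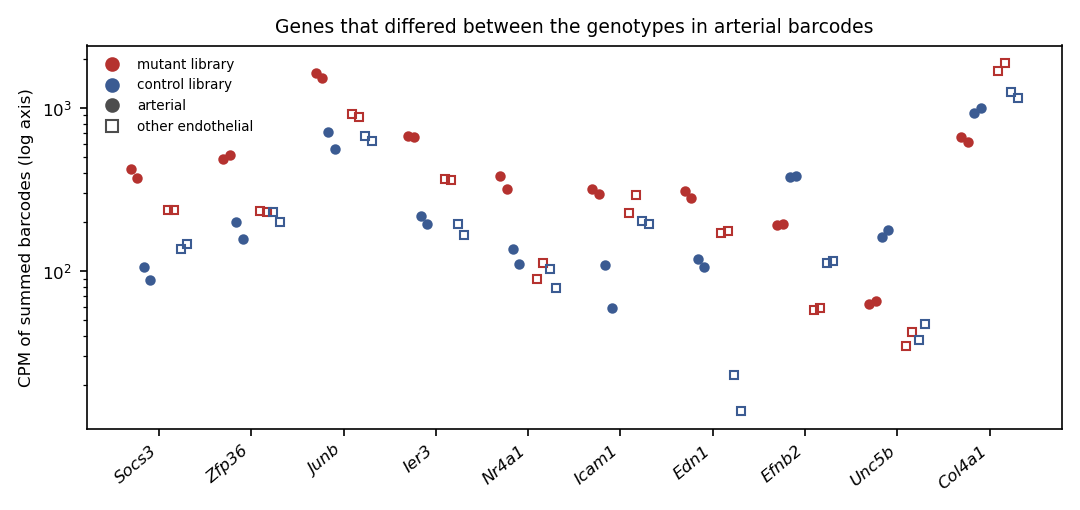
Level of 10 genes in CPM (log axis), with 1 point per library, in arterial barcodes (filled circles) and other endothelial barcodes (open squares). In arterial barcodes the mutants lie above both controls from *Socs3* to *Edn1* and below both controls for *Efnb2*, *Unc5b* and *Col4a1*.

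Immediate early genes, which cells transcribe within minutes of a stimulus, formed the most uniform group. Of 16 tested members 14 were higher and 0 lower in mutant arterial barcodes, with a median log2 fold change of 1.06 against 0.01 over all genes, where 13.7% of genes were called higher. *Fos*, an AP-1 subunit, was at 1457 and 1606 CPM in mutants against 596 and 537 CPM in controls (log2 fold change 1.51 ± 0.09, adjusted p = 3.62e-07). *Ier3*, an early response gene of survival signaling, was at 674 and 663 CPM against 218 and 194 CPM (log2 fold change 1.77 ± 0.10, adjusted p = 2.57e-07). *Zfp36*, which destabilizes AU-rich messenger RNAs, was at 486 and 518 CPM against 199 and 157 CPM (log2 fold change 1.57 ± 0.12, adjusted p = 2.09e-06). The nuclear receptor *Nr4a1* was at 381 and 317 CPM against 136 and 111 CPM (log2 fold change 1.57 ± 0.12, adjusted p = 3.28e-06). *Junb*, another AP-1 subunit and named after its values were seen, was at 1633 and 1529 CPM against 712 and 563 CPM (log2 fold change 1.39 ± 0.10, adjusted p = 1.96e-06). All 4 libraries separated by genotype for these 5 genes. The heat shock genes *Hspa1a* and *Hspa1b* were the tested members that did not pass, with log2 fold changes of 0.27 and -0.11. The list summed to 10513, 10376, 5835 and 4928 CPM in arterial barcodes of mutant 1, mutant 2, control 1 and control 2, and to 9155, 9003, 5267 and 5208 CPM in the free RNA of the same libraries. The part of handling during digestion in this group was not tested. After subtraction of free RNA 14 of 16 were higher, where 13.4% of all genes were. With barcodes thinned to 2000 UMIs 13 of 15 were higher, where 8.79% of all genes were. The list also rose in other endothelial barcodes of the main analysis. There 11 of 15 tested members were higher and 2 lower (median 0.38), where 27.3% and 27.8% of all genes were called.

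Flow-responsive genes followed in part. Of 17 tested 6 were higher, above the 13.7% of all genes, and 1 lower, below the 12.9% of all genes (median log2 fold change 0.24). *Klf4* and *Klf2*, transcription factors induced by laminar shear, were at 969 and 1048 against 585 and 609 CPM (log2 fold change 0.84 ± 0.09, adjusted p = 2.58e-05) and at 1999 and 1872 against 1329.7 and 1458 CPM (log2 fold change 0.55 ± 0.07, adjusted p = 1.64e-04). *Bmp4*, a ligand of the TGFβ superfamily, was low but higher in mutants, at 31.5 and 42.9 against 17.1 and 13.5 CPM (log2 fold change 1.36 ± 0.24, adjusted p = 0.00110), having entered the test through the mutants alone (adjusted p = 0.00402 without the minimum share), and *Cav1*, the caveolar coat protein, stood at 886 and 968 against 697 and 590.4 CPM (log2 fold change 0.61 ± 0.10, adjusted p = 5.83e-04). *Nos3*, the endothelial nitric oxide synthase, did not pass, at 161 and 141 CPM in mutants and 141 and 147 CPM in controls (log2 fold change 0.15). Lipid-handling genes moved one way, with 6 of 10 higher and 0 lower (median 0.63), where 13.7% and 12.9% of all genes were called. The fatty acid-binding proteins *Fabp4* and *Fabp5* were at 6263 and 7509 against 4090.3 and 3577 CPM (log2 fold change 0.92 ± 0.08, adjusted p = 8.46e-06) and at 342 and 387 against 124 and 93.0 CPM (log2 fold change 1.82 ± 0.13, adjusted p = 1.96e-06). *Meox2*, a homeobox factor that promotes fatty acid transport in endothelium, was at 244 and 276 against 167 and 105 CPM (log2 fold change 1.01 ± 0.16, adjusted p = 5.86e-04).

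Arterial identity genes changed in both directions. Of 34 tested, 12 were higher and 11 lower with a median of 0.01, both above the 13.7% and 12.9% of all genes. *Sox17* was at 404 and 324 CPM in mutants and 391 and 377 CPM in controls, with a log2 fold change of 0.00 and groups that overlapped. *Fbln2* was at 984 and 929 against 811 and 799.8 CPM (log2 fold change 0.33 ± 0.08, adjusted p = 0.00858). The vasoconstrictor *Edn1* was at 310.1 and 280.1 CPM in mutants against 118 and 106 CPM in controls (log2 fold change 1.47 ± 0.10, adjusted p = 1.96e-06), the LIM protein *Crip1* at 2013 and 1946 against 1089 and 1028 CPM (log2 fold change 0.98 ± 0.07, adjusted p = 1.96e-06) and the calcification inhibitor *Mgp* at 3646 and 5004 against 2638 and 1861 CPM (log2 fold change 1.02 ± 0.15, adjusted p = 2.73e-04). On the lower side, *Unc5b*, a netrin receptor of arteries, was at 62.9 and 65.3 against 161 and 178 CPM (log2 fold change -1.32 ± 0.12, adjusted p = 1.16e-05). The arterial connexin *Gja4* fell from 307 and 367 CPM in controls to 224 and 253 CPM in mutants (log2 fold change -0.42 ± 0.11, adjusted p = 0.0175), and connexin 43, *Gja1*, from 169 and 178 to 137 and 117 CPM (log2 fold change -0.37 ± 0.11, adjusted p = 0.0216). *Gja4* did not pass without mutant 1 (-0.32, adjusted p = 0.0685) or control 2 (-0.28, adjusted p = 0.111), nor *Gja1* without mutant 2 (-0.27, adjusted p = 0.210) or with free RNA subtracted (-0.32, adjusted p = 0.0520). Of further arterial genes, *Hey1* (log2 fold change -0.09) and *Dll4* (-0.10) did not pass, and both were named after their values were seen. *Jag1* was called higher (log2 fold change 0.52 ± 0.11 with free RNA subtracted, adjusted p = 0.00596), and *Efnb2* was called lower, as given below.

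Of 13 Notch genes 4 were higher and 2 lower, against 13.7% and 12.9% of all genes, so the share lower was near that of all genes. The ligand *Dll1* rose to 51.5 and 80.5 CPM from 47.4 and 48.6 CPM (log2 fold change 0.56 ± 0.19, adjusted p = 0.0481), a call that mutant 2 carried (0.17, adjusted p = 0.625 without it; 0.54, adjusted p = 0.0670 with free RNA subtracted), and the target *Nrarp*, a feedback regulator, to 168 and 131 CPM from 105 and 95.4 CPM (log2 fold change 0.64 ± 0.13, adjusted p = 0.00329). The receptor *Notch4* fell to 99.0 and 100.5 CPM from 167 and 161 CPM (log2 fold change -0.64 ± 0.11, adjusted p = 8.02e-04) and the coactivator *Maml3* to 64.1 and 74.8 CPM from 134 and 116 CPM (log2 fold change -0.77 ± 0.13, adjusted p = 9.13e-04). Of 15 tested members of the ephrin and semaphorin list 10 were lower and 0 higher in mutants (median -0.51), where 12.9% of all genes were called lower. *Efnb2*, the ephrin ligand that marks arteries, was at 193 and 193 CPM in mutants and 378 and 381 CPM in controls (log2 fold change -0.90 ± 0.09, adjusted p = 2.96e-05) with no overlap between the groups. *Sema6d*, a transmembrane semaphorin, was at 123 and 124 against 227 and 225 CPM (log2 fold change -0.79 ± 0.10, adjusted p = 8.98e-05) and *Efnb1* at 75.0 and 101 against 146 and 162 CPM (log2 fold change -0.72 ± 0.14, adjusted p = 0.00296). The same list had 10 of 17 members lower and 2 higher in other endothelial barcodes, where 27.8% of all genes were called lower and 27.3% higher.

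**Figure D4:**
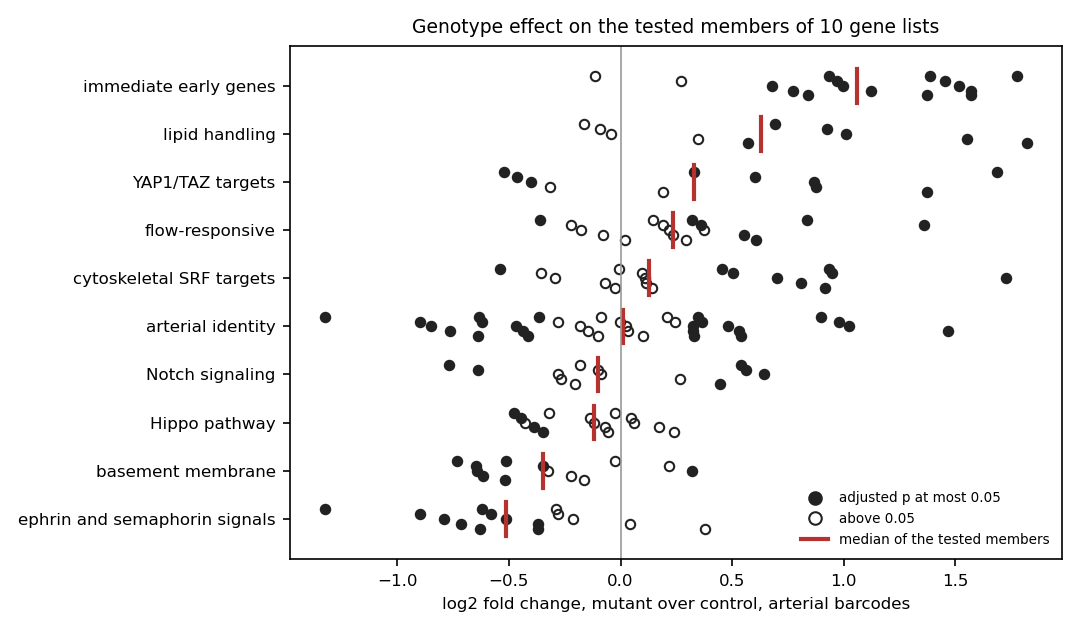
Log2 fold change of mutant over control in arterial barcodes for each tested member of 10 gene lists, filled where the adjusted p is at most 0.05, with the median of each list as a red bar. Immediate early genes lie almost wholly to the right (median 1.06) and ephrin and semaphorin signals to the left (median -0.51).

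Targets of YAP1 and TAZ were higher for 6 and lower for 3 of 11 tested members (median 0.33), where 13.7% and 12.9% of all genes were called. In other endothelial barcodes they were higher for 9 and lower for 2 of 13, where 27.3% and 27.8% of all genes were called, so the counts of the classes are not on the same footing. The matricellular proteins *Ccn1* and *Ccn2* were at 318 and 336 CPM in mutants against 105 and 163 CPM in controls (log2 fold change 1.37 ± 0.16, adjusted p = 5.88e-05) and at 145 and 165 against 59.1 and 122 CPM (log2 fold change 0.88 ± 0.23, adjusted p = 0.0133), and *Myof*, a membrane repair protein, was at 111 and 117 against 72.3 and 59.1 CPM (log2 fold change 0.87 ± 0.13, adjusted p = 3.58e-04). For *Ccn2* control 2 lay close to the mutants, and its log2 fold change was 0.42 without control 1 and 1.47 without control 2 (adjusted p = 0.0181 and 6.49e-09). DESeq2 called 3 members higher and 2 lower, and 7.77% and 5.65% of all genes. The transcripts of the coactivators did not pass, with log2 fold changes of -0.02 for *Yap1* and 0.06 for *Wwtr1*. For *Ccn1* and *Myof*, RefSeq promoters (GRCm38.p6, 250 bases before to 50 bases after the start, written 5′ to 3′ on the gene's strand) are shown, because TEAD factors recruit YAP1 and TAZ to DNA. *Ccn2* was not matched. Capitals mark the TEAD core GGAATG on either strand.
Ccn1, chr3:145649936-145650235, minus strand: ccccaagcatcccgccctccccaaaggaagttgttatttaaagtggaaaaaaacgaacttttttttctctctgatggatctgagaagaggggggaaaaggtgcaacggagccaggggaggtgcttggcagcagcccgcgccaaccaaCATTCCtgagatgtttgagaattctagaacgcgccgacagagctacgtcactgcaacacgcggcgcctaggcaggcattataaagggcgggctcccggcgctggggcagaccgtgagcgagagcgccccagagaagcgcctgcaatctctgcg
Myof, chr19:38043528-38043827, minus strand: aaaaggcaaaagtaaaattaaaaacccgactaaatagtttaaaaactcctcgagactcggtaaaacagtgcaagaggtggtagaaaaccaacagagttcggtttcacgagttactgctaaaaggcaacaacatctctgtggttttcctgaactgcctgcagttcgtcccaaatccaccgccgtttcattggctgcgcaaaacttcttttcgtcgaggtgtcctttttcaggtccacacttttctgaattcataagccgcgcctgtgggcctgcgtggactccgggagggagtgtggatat
The *Ccn1* window held 1 TEAD core, read on the opposite strand as CATTCC from position -103 relative to the start, and the *Myof* window held none. Of 32851 mouse promoter windows of this length 14.7% held the core. Neither window held a CArG box, the motif of serum response factor (SRF), which was found in 1.63% of them. A match of letters is not a measured binding site.

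Cytoskeletal targets of SRF, which also takes part in mechanical responses, were higher for 8 and lower for 1 of 18 tested members (median 0.13), where 13.7% and 12.9% of all genes were called. *Fhl1*, a LIM-domain protein, was at 59.5 and 65.7 CPM in mutants against 18.6 and 21.6 CPM in controls (log2 fold change 1.73 ± 0.18, adjusted p = 2.96e-05), *Tagln*, an actin-binding protein, at 277 and 331 against 153 and 181 CPM (log2 fold change 0.95 ± 0.12, adjusted p = 1.22e-04), *Zyx*, the focal adhesion protein zyxin, at 126 and 114 against 64.0 and 68.5 CPM (log2 fold change 0.93 ± 0.12, adjusted p = 1.36e-04) and *Vcl*, vinculin, at 169 and 173 against 106 and 84.3 CPM (log2 fold change 0.92 ± 0.12, adjusted p = 1.59e-04). *Tagln* is shared with mural cells, whose 11 markers summed to 737 to 1057 CPM across libraries without separating the genotypes. It was not among the genes tested in barcodes with *Sema3g* and with *Stmn2* or *Gja5*. Barcodes without *Sema3g* made up more of the arterial barcodes in mutants, as given above, and their part in the rise of *Tagln* was not tested. In other endothelial barcodes 14 of 17 tested SRF targets were higher and 1 lower (median 0.39), where 27.3% and 27.8% of all genes were called. Among barcodes with *Sema3g* and with *Stmn2* or *Gja5* 6 of 15 mesenchymal genes were higher and 2 lower (median 0.26). In that comparison 10.7% and 8.26% of all genes were called, and these counts are descriptions. Over all arterial barcodes mesenchymal genes were mixed, with 6 higher and 5 lower of 15, against 13.7% and 12.9% of all genes. *S100a4* was at 514 and 373 against 245 and 248 CPM (log2 fold change 0.92 ± 0.13, adjusted p = 2.16e-04) and *Snai1*, a repressor of epithelial genes, at 45.8 and 59.1 against 39.1 and 28.1 CPM (log2 fold change 0.72 ± 0.20, adjusted p = 0.0175), while *Zeb2*, a zinc-finger repressor of the same program, was at 111 and 113 against 271 and 289 CPM (log2 fold change -1.24 ± 0.10, adjusted p = 4.84e-06). *Col1a2*, of the collagen of bone, was at 479 and 67.2 CPM in mutants and 271 and 2686 CPM in controls, with ranges that overlapped (log2 fold change -2.38 ± 0.83, adjusted p = 0.0499). Without control 2 its log2 fold change was 0.068 (adjusted p = 0.929), and with free RNA subtracted -2.21 (adjusted p = 0.160). *Snai1* did not pass without mutant 2 (0.49, adjusted p = 0.125) or control 2 (0.51, adjusted p = 0.0685).

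Basement membrane genes were mostly lower. Of 13 tested members 7 were lower and 1 higher (median -0.35), where 12.9% and 13.7% of all genes were called. *Col4a1* and *Col4a2*, the chains of type IV collagen, were at 664 and 622 CPM in mutants against 937 and 1008 CPM in controls (log2 fold change -0.52 ± 0.08, adjusted p = 6.85e-04) and at 422 and 412 against 677 and 675 CPM (log2 fold change -0.62 ± 0.09, adjusted p = 2.24e-04). *Col18a1*, the source of endostatin, was at 215 and 197 against 309.6 and 372 CPM (log2 fold change -0.65 ± 0.11, adjusted p = 9.79e-04), the proteoglycan perlecan, *Hspg2*, at 230.0 and 220.0 against 383 and 358 CPM (log2 fold change -0.64 ± 0.09, adjusted p = 3.44e-04) and nidogen 2, *Nid2*, at 43.5 and 37.1 against 66.4 and 74.9 CPM (log2 fold change -0.73 ± 0.15, adjusted p = 0.00329). In other endothelial barcodes the list went the other way, with 8 of 13 higher and 2 lower (median 0.54), where 27.3% and 27.8% of all genes were called. The direction in arterial barcodes depended on the gate, since cells chosen by *Sox17*, *Fbln2* and *Gja4* instead gave 4 higher and 2 lower of 14 (median 0.06), where 19.3% and 20% of all genes were called.

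Elastic fiber genes had 3 of 9 higher and 1 lower (median 0.24), where 13.7% and 12.9% of all genes were called, with elastin, *Eln*, at 543 and 532 CPM in mutants against 434 and 448 CPM in controls (log2 fold change 0.36 ± 0.09, adjusted p = 0.00920), and *Ltbp1*, which tethers latent TGFβ, lower at 25.7 and 37.6 against 53.2 and 46.8 CPM (log2 fold change -0.56 ± 0.20, adjusted p = 0.0490). Barcodes without *Sema3g*, in which *Eln* was highest, made up more of the arterial barcodes in mutants. In barcodes with *Sema3g* and with *Stmn2* or *Gja5* it was at 488 and 523 CPM in mutants against 478 and 428 CPM in controls. There 2 of 9 elastic fiber genes were higher and 0 lower (median 0.06), where 10.7% and 8.26% of all genes were called. These are descriptions, and the part of the changed makeup was not tested. *Ltbp1* did not pass without mutant 1 (-0.33, adjusted p = 0.303) or with free RNA subtracted (-0.51, adjusted p = 0.1004) or without the minimum share of barcodes, which it reached in controls alone. Of 19 adhesion genes tested, 2 were higher, below the 13.7% of all genes, and 6 lower, above the 12.9% of all genes. The integrin chains *Itga2* and *Itga9* were at 18.9 and 14.8 against 56.6 and 50.9 CPM (log2 fold change -1.61 ± 0.20, adjusted p = 8.37e-05) and at 118 and 109.5 against 167 and 161 CPM (log2 fold change -0.45 ± 0.10, adjusted p = 0.00678). Focal adhesion kinase, *Ptk2*, was at 270.1 and 257 against 417 and 397 CPM (log2 fold change -0.55 ± 0.09, adjusted p = 9.57e-04), and the tetraspanin *Cd9* was higher, at 960.1 and 935 against 636 and 628 CPM (log2 fold change 0.66 ± 0.08, adjusted p = 8.12e-05). *Itga9* just missed the threshold without mutant 2 (-0.41, adjusted p = 0.0551).

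Secreted signals were higher for 6 and lower for 6 of 21 tested members (median 0.03), where 13.7% and 12.9% of all genes were called. Alongside *Edn1*, *Bmp4* and *Vwf*, some were named after their values were seen because of their known roles in bone marrow. The chemokine *Cxcl12*, which retains hematopoietic cells, was at 832 and 957 CPM in mutants against 1610.0 and 1597 CPM in controls (log2 fold change -0.76 ± 0.08, adjusted p = 4.62e-05). Stem cell factor, *Kitl*, was at 671 and 624 against 892 and 874 CPM (log2 fold change -0.37 ± 0.08, adjusted p = 0.00516). *Tgfb1* was higher, at 232 and 257 against 148 and 143 CPM (log2 fold change 0.83 ± 0.10, adjusted p = 9.91e-05), and *Tgfb2* lower, at 104 and 82.9 against 145 and 137 CPM (log2 fold change -0.52 ± 0.13, adjusted p = 0.00900), though not without mutant 2 (-0.38, adjusted p = 0.0907). In other endothelial barcodes 15 of 21 tested members of this list were higher and 4 lower, where 27.3% and 27.8% of all genes were called.

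Genes of other endothelial beds were set against the 13.7% of all genes called higher and the 12.9% called lower in arterial barcodes. Of 9 capillary genes tested 0 were higher and 4 lower, namely *Btnl9* as given above, *Kdr*, the main VEGF receptor, at 216 and 205 CPM in mutants against 459 and 446 CPM in controls (log2 fold change -1.03 ± 0.09, adjusted p = 1.16e-05), *Ramp3*, an adrenomedullin receptor subunit, at 27.5 and 25.2 against 64.5 and 60.9 CPM (log2 fold change -1.18 ± 0.16, adjusted p = 2.19e-04) and *Cd300lg* at 125 and 96.2 against 204 and 193 CPM (log2 fold change -0.77 ± 0.12, adjusted p = 4.43e-04). *Btnl9* and *Ramp3* entered the test through the controls alone (adjusted p for *Ramp3* without the minimum share 0.00118). The barcodes with *Sema3g* alone made up less of the arterial barcodes in mutants, as given above. They held the capillary gene *Gpihbp1* at 1399 and 651 CPM in mutants and 1070.0 and 717 CPM in controls. In barcodes with *Sema3g* and with *Stmn2* or *Gja5* it was at 248 to 288 CPM. Among the latter 5 of 8 capillary genes tested were lower. In that comparison 8.26% of all genes were lower. Both are descriptions, since the group was set by gate genes after the values were seen. How far the changed makeup of the gate carries the capillary genes was not tested. Of 5 sinusoidal genes 2 were lower, *Tfpi*, the tissue factor pathway inhibitor, at 33.2 and 40.01 against 122 and 93.0 CPM (log2 fold change -1.47 ± 0.16, adjusted p = 4.15e-05) and the VEGF-C receptor *Flt4* at 41.2 and 32.4 against 67.4 and 83.7 CPM (log2 fold change -0.96 ± 0.17, adjusted p = 0.00120), and 1 was higher, the cytokine receptor subunit *Il6st* (log2 fold change 0.34 ± 0.10, adjusted p = 0.0305). *Flt4* did not pass among barcodes with *Sema3g* and with *Stmn2* or *Gja5*, at -0.56 (adjusted p = 0.0677). The increase of *Il6st* was absent in the same barcodes, where its log2 fold change was -0.24 (adjusted p = 0.269), and the call did not hold without mutant 2 (0.28, adjusted p = 0.121) or control 2 (0.22, adjusted p = 0.210).

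Venous genes were tested for 5 members, of which 3 were higher and 1 lower, against 13.7% and 12.9% of all genes. *Vwf* was at 273 and 328 CPM in mutants against 172 and 138 CPM in controls (log2 fold change 1.04 ± 0.13, adjusted p = 8.65e-05), *Nr2f2*, the transcription factor of vein identity, at 117 and 154 against 78.6 and 67.9 CPM (log2 fold change 0.97 ± 0.15, adjusted p = 4.58e-04) and *Tmem252* at 127 and 91.4 against 43.5 and 21.6 CPM (log2 fold change 1.77 ± 0.23, adjusted p = 1.18e-04). *Lrg1*, a secreted glycoprotein, was at 190.0 and 286 against 356 and 345 CPM (log2 fold change -0.47 ± 0.15, adjusted p = 0.0349) and did not pass without mutant 1 (-0.20, adjusted p = 0.297). The barcodes without *Sema3g*, in which *Vwf* was highest, were also the larger share in mutants, as given above. Among barcodes with *Sema3g* and with *Stmn2* or *Gja5* the log2 fold change of *Vwf* was 0.73 and that of *Tmem252* 1.45, whereas *Nr2f2* was too rare there to be tested. These values are descriptions, since the group was set by gate genes after the values were seen. *Plvap*, the diaphragm protein of fenestrated endothelium, did not pass over all arterial barcodes (log2 fold change 0.01) and had a log2 fold change of -0.85 in that narrower group. How far the changed makeup of the gate carries the venous genes was not tested.

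Most tip-cell genes did not reach the detection minimum of the test in arterial barcodes. There the list summed to 1200.4, 1061, 1529 and 1568 CPM in mutant 1, mutant 2, control 1 and control 2. Most of that sum was *Col4a1*, whose levels are given above, so it does not give the direction of the other members. *Esm1*, a proteoglycan of sprouting tips, was at 12.6 and 21.4 CPM in mutant and 58.1 and 57.3 CPM in control arterial barcodes. In other endothelial barcodes it was at 360.5 and 334 CPM in mutants against 38.1 and 38.9 CPM in controls. *Apln* was at 29.2 and 10.5 and 6.84 and 4.68 CPM in arterial barcodes and at 407 and 462 and 40.8 and 34.3 CPM in the others. Of 3 tip genes tested in arterial barcodes 2 were lower, both basement membrane genes named above, *Col4a1* and *Nid2*, where 12.9% of all genes were lower, while in other endothelial barcodes 8 of 8 were higher, where 27.3% of all genes were.

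The genotype effect was then compared between the classes. A model with library as a block tested whether the effect in arterial barcodes differed from that in other endothelial barcodes, and 618 of 6622 genes (9.33%) passed, 356 (5.38%) with a larger log2 fold change in arterial barcodes and 262 (3.96%) with a smaller one. Among the 5562 genes that were tested in both classes 533 (9.58%) passed. DESeq2 called 188. Without mutant 1, mutant 2 or control 1 the count was 399, 322 and 409. The other class changed in its makeup between the genotypes, with *Stab2* in 31.7% and 31.1% of mutant against 57.6% and 54.6% of control barcodes and the tip gene *Apln* in 36.4% and 40.9% against 11.5% and 9.51%. An effect on expression and a change of makeup in that class cannot be told apart here. Of the 8 widest differences only that of *Arhgef28*, a guanine nucleotide exchange factor, belonged to a gene tested in both classes (difference in log2 fold change -2.39 ± 0.13, adjusted p = 1.97e-05). The other 7 entered through the class in which they are high and are given as descriptions without a p. *Esm1* (difference in log2 fold change -4.86), the adhesion receptor E-selectin *Sele* (2.87, but -4.81 among barcodes with *Sema3g* and with *Stmn2* or *Gja5*), the long noncoding RNA *Morrbid* (-2.65), the proteoglycan protease *Adamts5* (2.53) and *Mrc1* (-2.46) were too rare for the test in arterial barcodes. *Rgs10*, a G-protein signaling regulator (2.93), and *Atp2a3*, a calcium pump of the endoplasmic reticulum (2.48, but -0.07 with barcodes thinned to 2000 UMIs), were too rare in the others. *Mrc1* rested on 1 and 1 UMIs in mutant and 21 and 23 UMIs in control arterial barcodes.

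*Sele* was at 65.2 and 83.3 CPM in mutants against 17.1 and 4.10 CPM in controls among arterial barcodes and at 85.1 and 96.4 against 105 and 84.2 CPM among the others, although it was found in only 7.84% of mutant and 3.31% of control arterial barcodes. *Arhgef28* was at 234 and 193 against 254 and 245 CPM in arterial barcodes and at 207 and 224 against 47.2 and 46.8 CPM in the others. *Rgs10* was at 65.2 and 57.2 against 39.1 and 45.1 CPM and at 4.88 and 7.76 against 20.5 and 48.5 CPM, where control 2 alone was high.

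**Figure D5:**
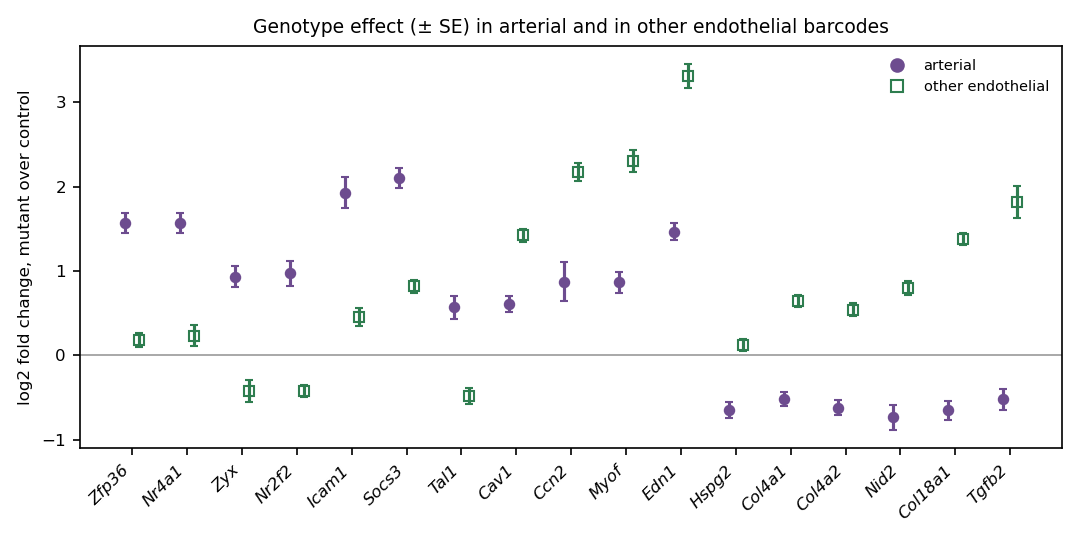
Log2 fold change of mutant over control (± SE) of genes named in the text, in arterial barcodes (filled circles) and other endothelial barcodes (open squares). For *Hspg2*, *Col4a1*, *Col4a2*, *Nid2*, *Col18a1* and *Tgfb2* the arterial effect is below 0 and the other endothelial effect above it, and for *Zyx*, *Nr2f2* and *Tal1* the reverse holds.

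By group, over members tested in both classes and against the 9.58% of all such genes, 11 of 15 immediate early genes differed between the classes, as did 8 of 12 basement membrane genes and 8 of 17 secreted signals. Of 17 cytoskeletal SRF targets 7 differed, 5 with a smaller and 2 with a larger log2 fold change in arterial barcodes. *Zfp36* rose by a log2 fold change of 1.57 in arterial barcodes and stood at 233 and 231 CPM in mutants against 229 and 199 CPM in controls among other endothelial barcodes (difference in log2 fold change 1.43 ± 0.11, adjusted p = 8.92e-05). *Socs3* rose in both classes, by 2.10 and 0.82, and the difference passed (difference in log2 fold change 1.31 ± 0.13, adjusted p = 3.72e-04). *Edn1* rose by 1.47 in arterial and 3.31 in other barcodes (difference in log2 fold change -1.82 ± 0.17, adjusted p = 2.77e-04). *Ccn2* (difference in log2 fold change -1.24 ± 0.19, adjusted p = 0.00348) and *Myof* (difference in log2 fold change -1.39 ± 0.17, adjusted p = 0.00108) also rose less in arterial barcodes, although for *Ccn2* the difference was 0.49 (adjusted p = 0.182) with the gate on *Sox17*, *Fbln2* and *Gja4*, whereas *Ccn1* did not pass (-0.54 with adjusted p = 0.0833). For *Col18a1* the effects were -0.65 and 1.38 (difference in log2 fold change -2.0 ± 0.12, adjusted p = 1.97e-05), and for *Tgfb2* -0.52 and 1.82 (difference in log2 fold change -2.33 ± 0.22, adjusted p = 2.51e-04). *Col4a1* was lower by -0.52 in arterial barcodes and higher by 0.64 in the others (difference in log2 fold change -1.13 ± 0.12, adjusted p = 3.88e-04). The vein factor *Nr2f2* (difference in log2 fold change 1.41 ± 0.14, adjusted p = 3.76e-04), *Zyx* (difference in log2 fold change 1.36 ± 0.16, adjusted p = 7.09e-04) and *Tal1* (difference in log2 fold change 1.08 ± 0.16, adjusted p = 0.00235) went the opposite way, higher in mutant arterial barcodes and lower in mutant other endothelial barcodes. *Efnb2* had log2 fold changes of -0.90 and -0.89, and their difference did not pass (0.02 ± 0.10, adjusted p = 0.932). With the gate on *Sox17*, *Fbln2* and *Gja4* the difference was -0.86 and passed (adjusted p = 0.00798). Ephrin and semaphorin genes differed for 3 of 15 and Hippo pathway genes for 0 of 15.

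Smaller groups completed the picture. Of 22 endothelial identity genes tested, without the 3 that select the barcodes, 3 were higher and 3 lower, near the 13.7% and 12.9% of all genes. The transcription factors *Tal1* and *Ets1* were at 99.6 and 79.1 against 63.0 and 63.2 CPM (log2 fold change 0.57 ± 0.14, adjusted p = 0.00827) and at 338 and 288 against 540.1 and 465 CPM (log2 fold change -0.61 ± 0.11, adjusted p = 0.00121), and *Calcrl*, the calcitonin receptor-like receptor, at 153 and 154 against 243 and 231 CPM (log2 fold change -0.55 ± 0.10, adjusted p = 0.00124). *Tal1* did not pass without mutant 1 (0.41, adjusted p = 0.0637). Of 10 MHC and interferon genes 2 were higher, near the 13.7% of all genes, and 0 lower, *Irf1* at 149 and 159 against 80.6 and 86 CPM (log2 fold change 0.97 ± 0.12, adjusted p = 8.43e-05) and *Isg15* at 148 and 115 against 102 and 83.7 CPM (log2 fold change 0.56 ± 0.14, adjusted p = 0.0107), the latter not without mutant 1 (0.39, adjusted p = 0.0633). Of 5 cell cycle genes 2 were higher, where 13.7% of all genes were called higher, the inhibitor *Cdkn1a* at 458 and 388 CPM in mutants against 159.7 and 184 CPM in controls (log2 fold change 1.37 ± 0.11, adjusted p = 5.37e-06) and cyclin D2, *Ccnd2*, at 347 and 283 against 246 and 223 CPM (log2 fold change 0.50 ± 0.11, adjusted p = 0.00495). Genes with the largest ratios of arterial over other endothelial level went both ways, with *Gper1*, an estrogen-binding receptor, at 87.0 and 61.4 against 29.3 and 31.0 CPM (log2 fold change 1.36 ± 0.19, adjusted p = 2.02e-04) and *Tmem100* at 154 and 132 against 62.5 and 67.3 CPM (log2 fold change 1.22 ± 0.13, adjusted p = 2.80e-05). *Ptprr* was higher (log2 fold change 0.48 ± 0.11, adjusted p = 0.00503) and *Tox2* lower, at 69.2 and 50.01 against 95.7 and 82.5 CPM (log2 fold change -0.52 ± 0.15, adjusted p = 0.0227), a call lost without mutant 2 (-0.31, adjusted p = 0.219) or control 1 (-0.41, adjusted p = 0.0646). *Nebl*, *Egfl8*, *Mannr* and *Bmx* did not pass (log2 fold changes -0.15, 0.01, -0.31 and 0.21), and *Gkn3* was too rare to be tested. The potassium channel *Kcnn4* was at 57.2 and 62.9 against 36.1 and 40.4 CPM (log2 fold change 0.74 ± 0.16, adjusted p = 0.00392).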

How the data were processed

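Single-cell libraries (10x Chromium 3′, version 3) of long-bone stroma from 2 mutants and 2 controls were analysed. The authors deposited expected counts for 53703 features in each of 6794880 possible barcodes, unfiltered, made per the labels and the methods of the study with cutadapt 3.5 and STARsolo 2.7.10a on GRCm39 with GENCODE annotation and multi-mapping reads shared out by expectation maximization, so genes with near-identical copies hold estimated counts. A UMI count per barcode was taken here as deposited, and sums were rounded to whole numbers before testing.

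Barcodes were selected by the same rule in all libraries, as the report states, and summed per library and class. edgeR 4.0.16 (quasi-likelihood, TMM scaling) compared mutants with controls over genes that passed its expression filter and were detected in 20% or more of the barcodes of either genotype; DESeq2 1.42.0 was an alternative. The difference between classes was tested on 8 sums with library as a block, and counts over genes tested in both classes were added after seeing the data. Arterial against other endothelial levels were not tested. With 2 libraries per genotype an exact permutation test cannot go below 0.33, and p-values measure only the spread between these libraries. Tests were checked on simulated data, in which 63.0% of 73 genes changed by 2-fold and 100% of 68 changed by 4-fold were called in the arterial comparison, and 30.0% and 96.1% for the difference. The simulation gave every gene the same fixed dispersion and changed only genes well counted in both classes. These shares therefore do not give the recovery in the real data. Intervals cover counting error only.

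No barcode was removed as a doublet. The scrublet caller marked 2 of 5899 barcodes in mutant 2, too few to have worked there, so leaving out the highest 5% of scores was added after seeing the data, as was the group with *Sema3g* and with *Stmn2* or *Gja5*. Replicate numbers were not used as pairs in the main tests, and whether they pair the libraries is not known. Members and gene lists were chosen with earlier results of these data known. Named genes were the gate genes, the 12 largest called increases and decreases whose libraries did not overlap (predicted, ribosomal and unnamed genes only counted), up to 4 called members of each list, the 8 widest differences and the highest and lowest genes against other endothelial barcodes at 50 CPM. Some genes that met this rule are not reported here. Genes named after their values were seen were *Junb*, *Hspa1a*, *Hspa1b*, *Nos3*, *Hey1*, *Dll4*, *Jag1*, *Yap1*, *Wwtr1*, *Cxcl12*, *Kitl*, *Tgfb1*, *Tgfb2*, *Plvap*, *Apln* and *Ddx3y*. Promoter sequences are RefSeq entries on GRCm38.p6, and gene positions come from GENCODE M39 (GRCm39).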

Additional observations from a re-analysis of the deposited data

Results flagged for a closer look

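The genotype effect differed between arterial and other endothelial barcodes for 618 genes by the test of the difference itself, 533 of them among the 5562 genes tested in both classes. Each value here is the log2 fold change in arterial barcodes minus that in other endothelial barcodes, for genes tested in both. The log2 fold change was more positive in arterial barcodes for *Zfp36* (1.43), *Socs3* (1.31), *Zyx* (1.36), *Nr2f2* (1.41) and *Tal1* (1.08). *Zyx*, *Nr2f2* and *Tal1* were higher in mutants in arterial barcodes and lower in the others.

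The log2 fold change was less positive or more negative in arterial barcodes for *Arhgef28* (-2.39), *Tgfb2* (-2.33), *Col18a1* (-2.0), *Edn1* (-1.82), *Myof* (-1.39), *Ccn2* (-1.24) and *Col4a1* (-1.13). *Tgfb2*, *Col18a1* and *Col4a1* were lower in mutants in arterial barcodes and higher in the others. With the gate on *Sox17*, *Fbln2* and *Gja4* the arterial log2 fold change of *Col4a1* was 0.087 and the difference for *Ccn2* 0.49. The makeup of both classes differed between genotypes as given in the report, and its part in these differences cannot be told apart from an effect within cells.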

How the results depend on the processing

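Of 812 arterial genes higher and 765 lower in mutants, DESeq2 called 459 and 334, thinning each barcode to 2000 UMIs left 160 and 151 (with 1821 genes tested), and a further demand of a 2-fold change left 122 and 65. Lower genes numbered 1225 with the gate on *Sox17*, *Fbln2* and *Gja4*, and 493 among barcodes with *Sema3g* and with *Stmn2* or *Gja5*. For other endothelial barcodes DESeq2 called 1119 higher, no filter on low counts 2590 higher, thinning 541 higher and 507 lower, and the 2-fold demand 163 and 165. The 618 differences between classes became 188 with DESeq2, 991 without a filter on low counts, 326 with the other gate, 97 after thinning and 180 at 2-fold or more. With 1 library left out they ranged from 322 to 471. Deviations of same-numbered libraries had a correlation over genes of -0.08 in arterial and 0.04 in other endothelial barcodes. With so few libraries that cannot settle whether the numbers pair them. The replicate block gave 886 higher, 859 lower and 1056 differences, against 812, 765 and 618 without it. The gap in arterial share was 15.7 percentage points with the other gate and 2.48 to 6.33 with 1 library left out.

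Signs turned as follows where the main or the alternative fit made a call, and the cause was not tested. Values called in neither fit could also change sign and are not listed. With the other gate the arterial log2 fold change was 0.087 for *Col4a1*, 0.039 for *Col4a2*, 0.20 for *Nid2*, 0.25 for *Arhgef28* and -0.40 for *Egfl8*, and the difference was -0.86 for *Efnb2* (adjusted p = 0.00798) and 0.49 for *Ccn2*. Among barcodes with *Sema3g* and with *Stmn2* or *Gja5* it was -0.85 for *Plvap* and -0.24 for *Il6st*, and the difference for *Sele* was -4.81. Thinning gave -0.94 for *Plvap* and -0.086 for *Il6st*, and a difference of -0.066 for *Atp2a3*. *Col1a2* was at 0.19 without called doublets and from -4.38 to 0.068 with 1 library left out. Over the 120 genes tested in arterial barcodes and named here, 2285 values under alternatives kept their side of the threshold, 135 lost and 18 gained the call. Another 11 turned sign with a call in the main or the alternative fit. Direction was not compared where neither fit made a call. Depth limits the arterial class, where genes in under 20% of its 185 to 259 barcodes per library were not tested.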
